A study of Homo sapiens with 32 samples.

Results

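The m6A peaks described here lie outside chromosomes 1 to 22, X and Y. They were chosen by sequence name alone, as every called peak whose sequence is not one of those 24 chromosomes. They numbered 1171 of 474004 peaks in the 16 peak lists, or 0.247%. The genome build was hg38, and the peaks fell on 32 contigs. Of these, 14 were unplaced contigs ("chrUn"), pieces of the assembly with no known chromosome, and held 578 peaks. Another 17 were unlocalized contigs ("random"), assigned to a chromosome but to no position on it, and held 555 peaks. The mitochondrial genome held the remaining 38. Per library, 786-O had 21 to 59 peaks on unplaced and 22 to 62 on unlocalized contigs, and RPTEC 9 to 36 and 12 to 32.

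In MeRIP-seq, fragmented RNA is pulled down with an antibody to N6-methyladenosine (m6A), and a peak is a stretch where this immunoprecipitate (IP) exceeds the Input. The study asked how loss of SETD2, which places H3K36me3 on transcribed chromatin, changes the m6A pattern in clear cell renal cell carcinoma (ccRCC). The cell lines were, the ccRCC line 786-O and RPTEC, renal proximal tubule epithelial cells immortalized with hTERT. Each cell line gave 4 lines with 2 IP libraries per line, untreated, of which each has 1 list of peaks. WT is the parental line with intact SETD2. SETD2KO-1 and SETD2KO-2 are single clones in which CRISPR/CAS9 inactivated SETD2. SETD2KO-1R is the SETD2KO-1 clone with SETD2 expressed again from a transgene. The term SETD2-expressing covers WT together with SETD2KO-1R. Clonal growth and exposure to CRISPR/CAS9 are therefore shared by SETD2KO-1, SETD2KO-2 and SETD2KO-1R and not by WT, and this cannot be told apart from other differences between WT and the rest.

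As background, most m6A in messenger RNA is placed by the METTL3 and METTL14 complex. Ribosomal RNA carries its own sites, placed on 18S rRNA by METTL5 and on 28S rRNA by ZCCHC4. Contigs that could not be placed in the assembly are rich in repeats and recent duplications, among them the ribosomal DNA (rDNA) arrays of the acrocentric chromosomes. A read from such a sequence often matches several copies equally well, so that a peak on one contig can hold reads made from another copy. How multiply matching reads were handled is not given in the sources used here. Read counts are not part of the peak lists, and the depth behind each peak is unknown. A called peak cannot separate more methylation from more RNA of that sequence. Their scores have no stated scale and were used only as a percentile within each list, 50 being the middle. No contig sequence is printed, since no genome was used.

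As a check on the samples, every library had 4 to 11 peaks in the SETD2 gene body, SETD2KO libraries included, so the SETD2 transcript was measured in all and the calls do not test its inactivation. Peaks were called in the bodies of all 7 renal epithelial markers examined in both cell lines, with VIM missing in 2 RPTEC libraries. Among proximal tubule markers, SLC34A1 and LRP2 had no peak in any library, and GGT1 had peaks in all 16. CA9, a hypoxia target often high in ccRCC, had no peak in any library, whereas VEGFA had peaks in all 16.

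Contig peaks were least frequent in WT in both cell lines. In 786-O WT, 45 and 59 peaks lay on contigs, 0.143% and 0.162% of the lists. The other 6 libraries of 786-O had 81 to 129 contig peaks, 0.255% to 0.394%. In RPTEC WT the counts were 29 and 22, or 0.106% and 0.0951%. The other 6 RPTEC libraries had 56 to 70 contig peaks, 0.192% to 0.291%. WT and the other lines did not overlap in either cell line. By line in 786-O, WT averaged 0.152% ± 0.0136 (SD, n = 2), the clone SETD2KO-1 0.356% ± 0.0539, the clone SETD2KO-2 0.321% ± 0.0937 and the re-expressing line SETD2KO-1R 0.314% ± 0.00192. The 4 lines of 786-O did not differ beyond the spread between libraries (exact permutation test of F over 2520 arrangements, F = 5.55, p = 0.0952), but passed without SETD2KO-2 replicate 2 (F = 15.0, p = 0.0381). By line in RPTEC, WT averaged 0.101% ± 0.00802 (SD, n = 2), the clone SETD2KO-1 0.255% ± 0.0418, the clone SETD2KO-2 0.265% ± 0.0361 and the re-expressing line SETD2KO-1R 0.202% ± 0.0137. These 4 lines differed (exact permutation test, F = 13.7, p = 0.0381). This call was lost without SETD2KO-2 replicate 2 (p = 0.0667, exact permutation test), SETD2KO-1R replicate 1 (p = 0.0857) or SETD2KO-1R replicate 2 (p = 0.0667). It was also lost with the upper 50% of peaks by score (F = 2.51, p = 0.181, exact permutation test) and with an equal number of peaks per library (F = 3.81, p = 0.114).

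**Figure D1:**
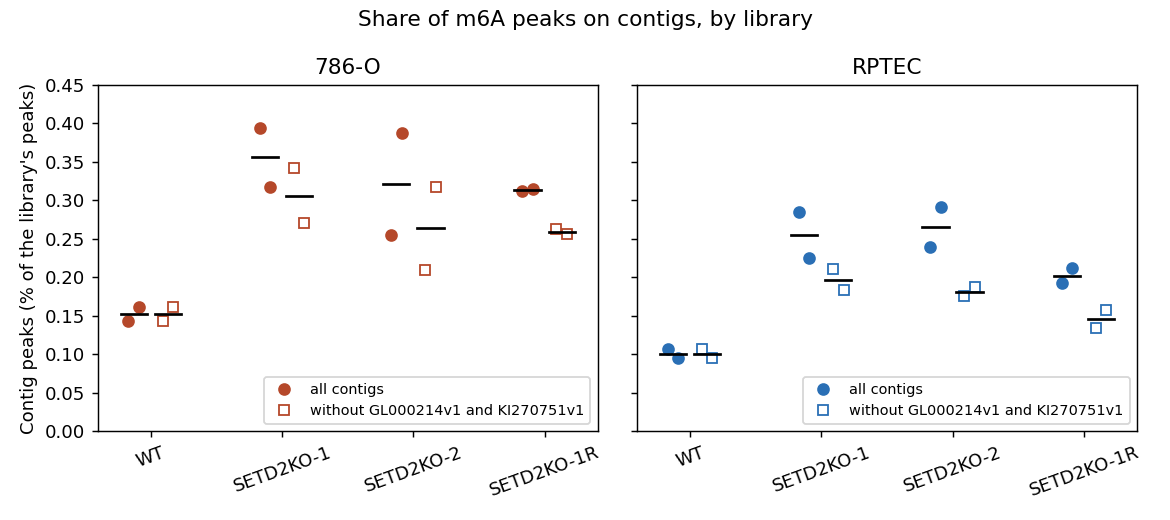
Share of each library's m6A peaks that lay on contigs, in percent, for the 4 lines of 786-O (left) and RPTEC (right). Each symbol is 1 library and each bar the mean of 2. Filled circles count all contigs, and open squares leave out chrUn_GL000214v1 and chrUn_KI270751v1. WT sat lowest in both cell lines with either count, at most 0.162% in 786-O and 0.106% in RPTEC.

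SETD2 status alone gave a smaller contrast, because SETD2KO-1R stayed nearer to the SETD2KO clones than to WT in both cell lines. Without the pair of contigs described next, RPTEC SETD2KO-1R (mean 0.145%) lay about midway between the RPTEC SETD2KO libraries (0.189%) and RPTEC WT (0.101%). In 786-O the share was 0.338% ± 0.0656 (SD, n = 4) in SETD2KO and 0.233% ± 0.0934 in SETD2-expressing libraries, a difference of 0.105 percentage points that was not past the threshold (p = 0.114, exact permutation test, two-sided). The RPTEC shares were 0.260% ± 0.0325 (SD, n = 4) and 0.151% ± 0.0590, a difference of 0.109 percentage points (p = 0.0286, exact permutation test, the smallest that 4 against 4 allows). The RPTEC call was lost with the upper 50% of peaks by score (0.0809, p = 0.143, exact permutation test) and with an equal number of peaks (0.103, p = 0.0571). All 4 RPTEC SETD2KO libraries were above all 4 SETD2-expressing libraries. Leaving out any 1 of the 4 SETD2KO libraries moved this p to 0.0571 (exact permutation test), with differences of 0.0986 to 0.120 percentage points. The difference in effect between the cell lines was -0.0035 percentage points (p = 0.966, exact permutation test over 4900 arrangements). Between the cell lines, 786-O had a share of 0.286% ± 0.0936 (SD, n = 8) and RPTEC one of 0.206% ± 0.0730, a difference of 0.0800 percentage points that did not pass (p = 0.0788, exact permutation test). It passed without 786-O WT replicate 1 (p = 0.0264, exact permutation test) or 786-O WT replicate 2 (p = 0.0359), with the upper 50% of peaks by score (0.115, p = 0.0306) and without the pair of contigs described next (0.0893, p = 0.00886). Without both rDNA contigs it was 0.0417 percentage points (p = 0.270, exact permutation test). The peak lists of the 2 cell lines carry different experiment names, so cell line and experiment cannot be told apart in any such comparison.

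A pair of unplaced contigs carried peaks in every library except the 4 of WT. On chrUn_GL000214v1 there were 86 peaks, between positions 35334 and 49752. No peak lay there in 786-O WT or in RPTEC WT. In 786-O, SETD2KO-1 had 6 and 7 peaks there, SETD2KO-2 had 7 and 7, and SETD2KO-1R had 6 and 8. In RPTEC, SETD2KO-1 had 7 and 6, SETD2KO-2 had 8 and 8, and SETD2KO-1R had 8 and 8. The contig was thus peak-free in both parental lines and carried at least 6 peaks in each of the 12 derived libraries. On chrUn_KI270751v1 there were 119 peaks, between positions 51058 and 76600, and again none in any WT library. In 786-O, SETD2KO-1 had 11 and 10 peaks, SETD2KO-2 had 11 and 13, and SETD2KO-1R had 10 and 7. In RPTEC, SETD2KO-1 had 11 and 7, SETD2KO-2 had 9 and 12, and SETD2KO-1R had 9 and 9. The counts in SETD2KO-1R, where SETD2 was expressed again, lay within the range of the SETD2KO clones of the same cell line on both contigs, except in 786-O SETD2KO-1R replicate 2. That library had 8 peaks on chrUn_GL000214v1, against 6 to 7 in the 786-O SETD2KO libraries, and 7 on chrUn_KI270751v1, against 10 to 13. Together the pair held 205 peaks, 17.5% of all contig peaks, with 13 to 20 in each derived library.

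Merging overlapping peaks of the 16 lists gave 99514 regions, 256 of them on contigs, and a library was taken to call a region if a peak of it overlapped by at least 1 bp. Over the whole genome 9 regions, 0.00904%, were called in all 12 derived libraries and in no WT library, and all 9 lay on these 2 contigs. With the upper 50% of peaks by score or an equal number of peaks per library, 4 regions of the genome met the rule and 1 of them lay on contigs, and with a cover of at least 50% of the region none did. The rule was formed after the counts were seen, and the 9 regions may not be independent, as described next. On chrUn_GL000214v1 they were 35334-36963, 39654-41839, 42122-43844 and 47445-49752. On chrUn_KI270751v1 they were 54563-56745, 60349-62099, 62372-64558, 67143-68807 and 69041-70302. The reverse rule, all 4 WT libraries and no derived library, found 3 regions, 0.00301%, none of them on contigs. With 1 derived library allowed to lack the call, 15 regions of the genome were found, of which 10 were on contigs. The scores of these peaks were not extreme. The mean percentile of the 9 regions ran from 29.1 (chrUn_KI270751v1:69041-70302) to 83.3 (chrUn_KI270751v1:60349-62099), and the latter region ranged from 65.3 to 92.9 over the 12 libraries. The median width of all peaks was 533 bp on chrUn_GL000214v1 and 519 bp on chrUn_KI270751v1, against 387 bp over all contig peaks.

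Summit positions on the 2 contigs were compared for a mirrored layout. Pairing each summit on one contig with each on the other within a library gave 851 pairs. The sum of the 2 positions, which is constant for inverted copies, fell within a single 40-bp window for 29 pairs. The fullest window more than 500 bp away held 11, and the fullest 40-bp window of position differences, constant for copies in the same orientation, held 14. With the positions of chrUn_KI270751v1 turned about this sum (104213 bp), 79 of the 86 peaks on chrUn_GL000214v1, or 91.9%, met a peak of the same library on the other contig. The sum was chosen from these same summits and the share met under other alignments was not computed, so this share is a description only. Reads of one contig could have been placed on the other. The peaks of chrUn_GL000214v1 spanned 14419 bp and all those of chrUn_KI270751v1 25543 bp. The gene table used names no gene by contig, so what the stretches encode is not stated here. The cause of their absence in WT was not tested.

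**Figure D2:**
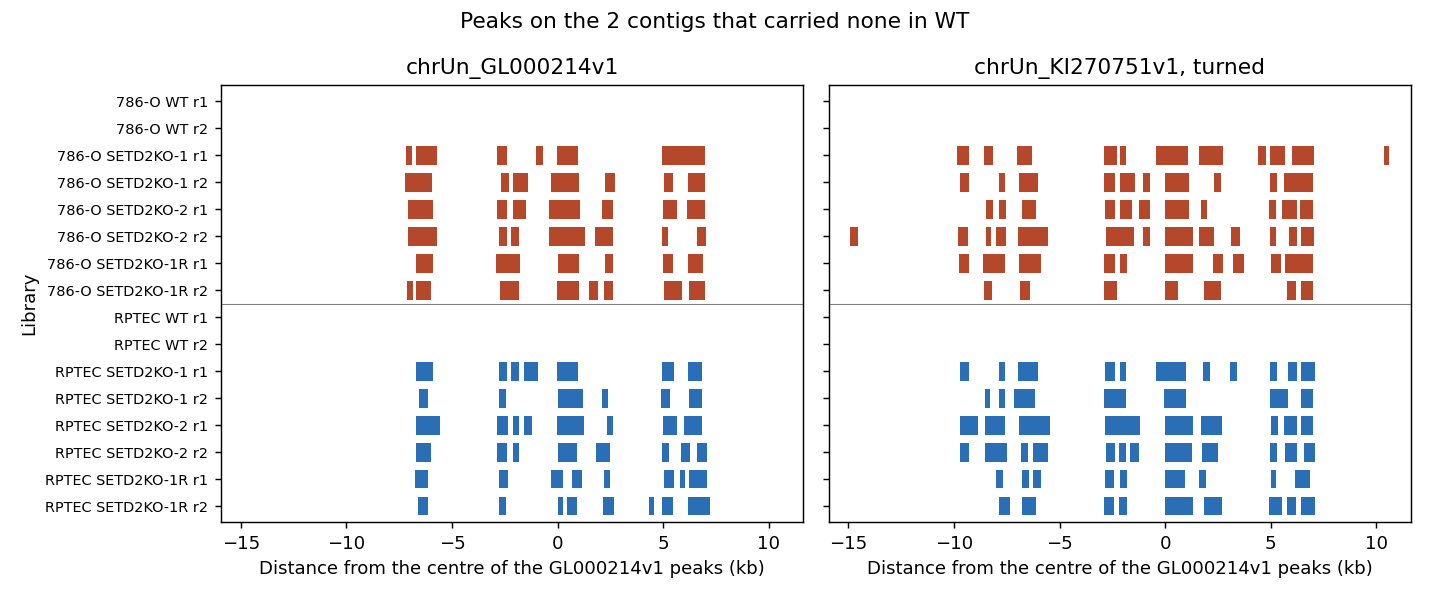
Peaks on chrUn_GL000214v1 (left) and on chrUn_KI270751v1 with its positions turned (right), 1 row per library (r1 and r2, replicates 1 and 2), drawn to scale as distance in kb from the centre of the chrUn_GL000214v1 peaks. Bars are called peaks, red in 786-O and blue in RPTEC. The 4 WT rows are empty, and 79 of the 86 bars on the left of the 12 other rows overlap in distance with a bar of the same row on the right.

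Other contigs contributed to the low share of WT in both cell lines. Without the mirrored pair, the share was 0.209% to 0.342% in the 6 derived 786-O libraries, still above the 0.143% and 0.162% of WT. In RPTEC it was 0.134% to 0.211%, also above WT, and the RPTEC contrast by SETD2 status was 0.0661 percentage points (p = 0.0286, exact permutation test). On chr14_GL000009v2_random, 786-O WT had 1 peak in each library and the derived 786-O libraries 6 to 10. On chrUn_KI270743v1 the counts were 1 and 1 in WT and 4 to 6 in the others. On chr1_KI270706v1_random 786-O WT had 3 and 1 peaks and the others 5 to 12, and on chr4_GL000008v2_random WT had 3 and 3 and the others 5 to 8. On each of these 4 contigs the 786-O groups did not overlap. The 4 were picked for this after the counts were seen. On some other contigs the 786-O groups overlapped, chrUn_GL000219v1 and both rDNA contigs among them. In RPTEC WT these 4 contigs were without peaks. The derived RPTEC libraries had 0 to 3 peaks on chr14_GL000009v2_random and on chrUn_KI270743v1, 0 to 4 on chr1_KI270706v1_random and 1 to 3 on chr4_GL000008v2_random. The RPTEC groups thus overlapped on all of them except chr4_GL000008v2_random.

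Gained regions were counted on contigs and over the genome, without a test of the difference. In 786-O, 825 of 77982 regions (1.06%) were called in all 4 SETD2KO libraries and neither WT library, and on contigs 24 of 222 (10.8%). The 24 became 12 with the upper 50% of peaks by score and 11 with an equal number of peaks. Of these 24, 10 lay on the mirrored pair and 14 on 8 other contigs. The highest ranked was chr4_GL000008v2_random:131485-131858, with a mean percentile of 94.9 and calls in all 6 derived 786-O libraries, in no WT library and in no RPTEC library. Next was chrUn_KI270743v1:109622-110165, with a mean percentile of 91.6 and calls in the same 6 libraries and in 1 of RPTEC. In RPTEC, 508 of 65906 regions (0.771%) met the same rule, and on contigs 13 of 129 (10.1%), 9 of them on the pair. The 13 became 7 with the upper 50% of peaks by score or with 50% cover. The 4 others were chr14_GL000009v2_random:60373-61003, chr22_KI270733v1_random:12367-13227, chr4_GL000008v2_random:152746-154522 and chrUn_KI270743v1:137460-138223. Regions called in both WT and no SETD2KO library made up 1177 regions (1.51%) in 786-O, 3 of them on contigs, and 960 (1.46%) in RPTEC, 1 on a contig. The 3 in 786-O were chr17_GL000205v2_random:111656-112013, chrUn_GL000195v1:166024-167163 and chrUn_GL000224v1:102540-103131, with mean percentiles of 22.4, 29.5 and 2.33.

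Gained contig regions were also examined after SETD2 was re-expressed. In 786-O, 20 of the 24 gained contig regions were called in both SETD2KO-1R libraries and 1 in neither. Of 801 gained regions on chromosomes, 166 were called in both SETD2KO-1R libraries and 372 in neither. In RPTEC, 11 of the 13 were called in both SETD2KO-1R libraries and 1 in neither, against 160 and 185 of 495 on chromosomes. The pair, already chosen for calls in every derived library, weighed on these counts. Off the pair, 10 of 14 gained contig regions in 786-O and 2 of 4 in RPTEC were called in both SETD2KO-1R libraries. Neighbouring and mirrored regions may share reads, and these counts are given without a test.

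Contig regions called by SETD2 status were counted under a strict rule. In 786-O, 373 regions (0.478%) were called in all 4 SETD2KO and no SETD2-expressing library, and 117 (0.15%) the other way. On contigs there was 1 of the former, chrUn_KI270438v1:109257-110715, with percentiles of 44.5 to 78.2, and none of the latter. The 1 contig region became 0 with the upper 50% of peaks by score, an equal number of peaks or 50% cover. It became 24 with 1 library allowed to deviate on each side, and 1 to 6 when 1 library was left out (6 without SETD2KO-2 replicate 2). Regions over the whole genome were not counted under these settings, so the rise cannot be read as particular to contigs. No peak lay anywhere on chrUn_KI270438v1 outside the 4 SETD2KO libraries of 786-O, which had 1, 3, 1 and 3 peaks there. The same held for chr22_KI270734v1_random, with 1, 1, 1 and 2 peaks in these libraries, although no region there was called in all 4. In RPTEC, 186 regions (0.282%) were called in SETD2KO libraries only and 141 (0.214%) in SETD2-expressing libraries only. On contigs these were chrUn_KI270743v1:137460-138223, also called in all 8 libraries of 786-O, and chr1_KI270711v1_random:39518-40255, with a mean percentile of 12.7. With 1 of 222 contig regions in 786-O and 2 of 129 in RPTEC, the counts were too small to be read against the shares over all regions.

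The 12 contigs with the most peaks held 981 of the 1171 peaks, or 83.8%. The first 2 were chr22_KI270733v1_random with 195 peaks and chrUn_GL000220v1 with 141, which hold rDNA. They were followed by chrUn_KI270751v1 (119), chrUn_GL000219v1 (96), chrUn_GL000214v1 (86), chr1_KI270706v1_random (67), chr14_GL000009v2_random (60) and chr4_GL000008v2_random (56). The last of the 12 were chrUn_GL000195v1 (44), chr9_KI270717v1_random (42), the mitochondrial genome (38) and chrUn_KI270743v1 (37). Peaks were present in all 16 libraries on only 4 sequences, namely both rDNA contigs, chrUn_GL000219v1 and the mitochondrial genome. Among these 12 sequences, leaving out the mitochondrial genome, the median percentile of a contig's peaks ran from 83.5 on chr4_GL000008v2_random and 77.8 on chr14_GL000009v2_random to 34.1 on chrUn_GL000219v1.

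**Figure D3:**
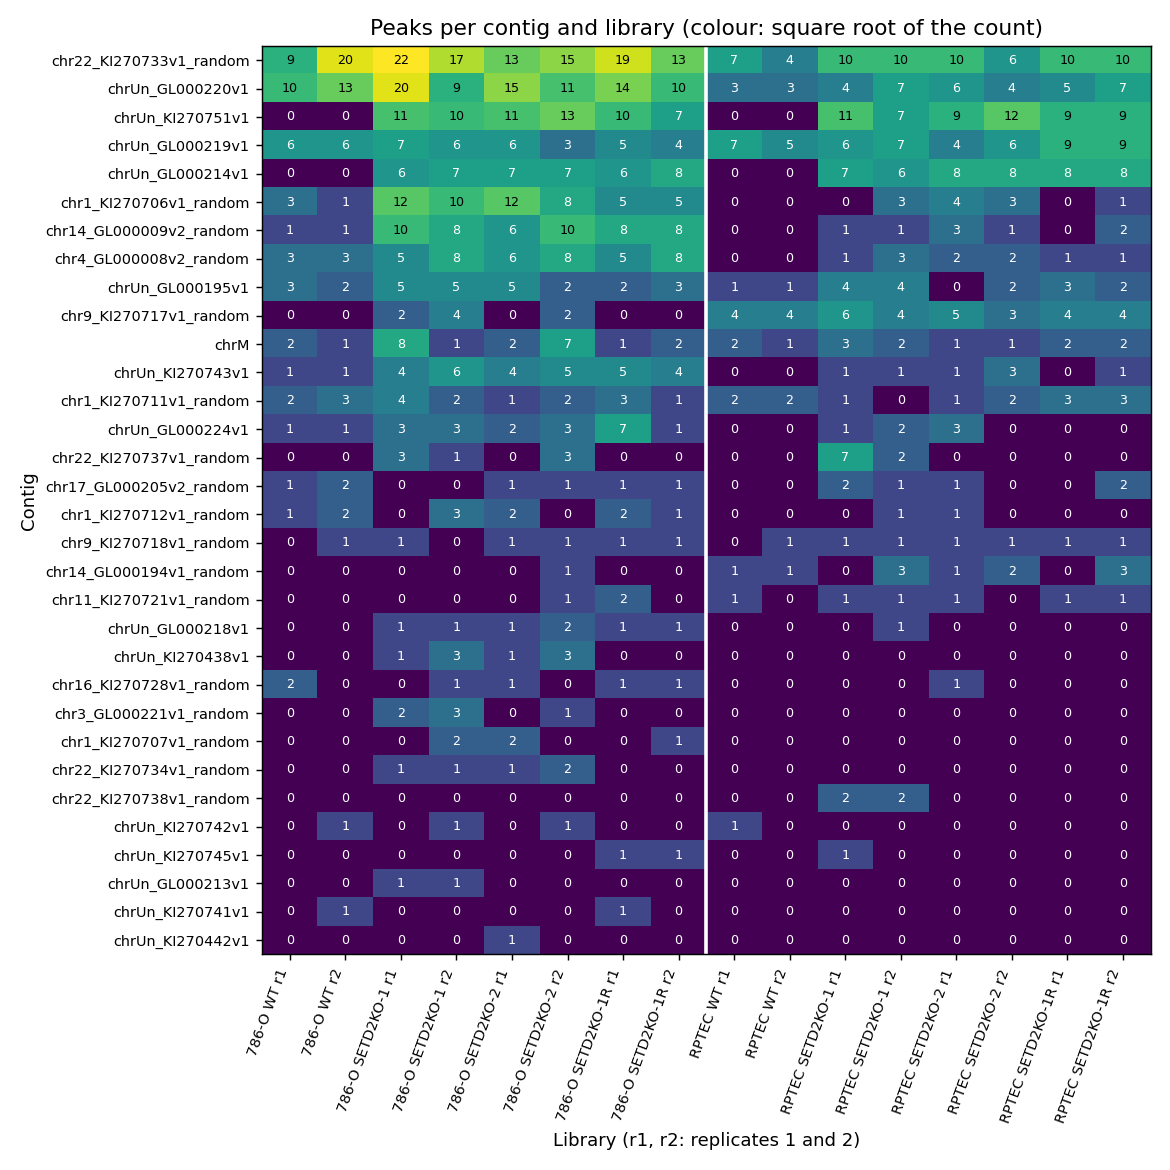
Number of peaks on each of the 32 contigs (rows, ordered by their total) in each of the 16 libraries (columns, r1 and r2 for replicates 1 and 2). Colour gives the square root of the count, and the white line separates 786-O from RPTEC. The rows of chrUn_KI270751v1 and chrUn_GL000214v1 are 0 in all 4 WT columns, and chr9_KI270717v1_random has 3 to 6 peaks in every RPTEC column and 0 to 4 in 786-O.

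Of 25 contigs with a peak in at least 4 libraries, 8 differed between the cell lines in their share of a library's peaks (two-sided exact permutation test, Benjamini-Hochberg over the 25). The same test was not run on the chromosomes, so this count cannot be read as particular to contigs. Of the 8 contigs, 5 were higher in 786-O. chrUn_GL000220v1 held 0.0390% of peaks in 786-O and 0.0183% in RPTEC (adjusted p = 0.00194, exact permutation test), and chr22_KI270733v1_random 0.0491% and 0.0315% (adjusted p = 0.0214). Of these 2 rDNA contigs, chrUn_GL000220v1 had 9 to 20 peaks per 786-O library and 3 to 7 per RPTEC library, and chr22_KI270733v1_random had 9 to 22 and 4 to 10. The others higher in 786-O were chr4_GL000008v2_random (adjusted p = 0.00907, exact permutation test), chr14_GL000009v2_random (adjusted p = 0.0214) and chr1_KI270706v1_random (adjusted p = 0.0228), all of which were low in 786-O WT as given above. The 3 others were higher in RPTEC. On chr9_KI270717v1_random all 8 RPTEC libraries had 3 to 6 peaks, whereas in 786-O SETD2KO-1 had 2 and 4, SETD2KO-2 had 0 and 2, and WT and SETD2KO-1R had none (adjusted p = 0.00194, exact permutation test). chrUn_GL000219v1 had 53 peaks in RPTEC and 43 in 786-O, 0.0251% against 0.0163% of peaks (adjusted p = 0.0146, exact permutation test). chr14_GL000194v1_random had 11 peaks in RPTEC and 1 in 786-O (adjusted p = 0.0228, exact permutation test).

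The ribosomal DNA contigs together carried 336 peaks, 28.7% of all contig peaks. Each contains a 45S unit, the precursor of 18S, 5.8S and 28S rRNA, followed by the intergenic spacer that separates one unit from the next, and part of a second copy, in which the gene table names an 18S pseudogene. Most peaks, 115 on chr22_KI270733v1_random and 112 on chrUn_GL000220v1, had their midpoint in the intergenic spacer. By library, the spacers held 13 to 29 peaks in 786-O (20.9 ± 5.06, SD, n = 8) and 5 to 11 in RPTEC (7.5 ± 1.69). The 45S units held 2 to 12 in 786-O (4.88 ± 3.48) and 0 to 6 in RPTEC (2.50 ± 2.00). The spacer counts of the cell lines did not overlap, whereas the 45S counts did. The whole lists held 25710 to 39670 peaks in 786-O and 19249 to 31207 in RPTEC. As a share of the list, spacer peaks made up 0.0412% to 0.0906% in 786-O and 0.0216% to 0.0364% in RPTEC. These shares did not overlap either.

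The 2 cell lines placed their spacer peaks differently. In the first 20 kb past the end of the 45S unit, counted over both contigs, 786-O libraries had 10 to 24 peaks (median 16, 132 in all) and RPTEC libraries 0 to 2 (median 0.5, 5 in all). Farther into the spacer, 786-O libraries had 3 to 6 peaks (median 4.5, 35 in all) and RPTEC libraries 4 to 9 (median 7, 55 in all). The limit of 20 kb was set after the values were seen, so these counts have no test, and they are not scaled to list size. All SETD2 lines of 786-O had the near peaks, WT included. On contigs, 3 regions passed Fisher's exact test between the cell lines with adjustment over all 99514 regions, and they lay in this near spacer. They were chr22_KI270733v1_random:147699-148147, chrUn_GL000220v1:120639-122028 and chrUn_GL000220v1:126720-129310, each called in 8 of 8 libraries of 786-O and 0 of 8 of RPTEC (adjusted p = 0.0476, Fisher's exact test). None passed with the upper 50% of peaks by score, an equal number of peaks or a cover of at least 50% of the region, and 2 to 5 contig regions passed when 1 library was left out. Over the genome 174 regions (0.175%) passed with more calls in 786-O, and 151 (0.152%) with more calls in RPTEC, none of the latter on contigs. The mean percentile of the 3 was 84.5, 37.5 and 68.6. The region chrUn_GL000220v1:135390-137807, the second widest among contig regions called in at least 8 libraries, was called in all 8 libraries of 786-O and 1 of RPTEC, but did not pass (adjusted p = 0.167 by Fisher's exact test). In the far spacer, chr22_KI270733v1_random:161501-161926 was called in 8 RPTEC and 6 786-O libraries, and chrUn_GL000220v1:144683-145601 in 8 and 2. The other way, chrUn_GL000220v1:146885-147503, also in the far spacer, was called in 6 libraries of 786-O and 0 of RPTEC. The spacer as counted ran up to the 18S pseudogene of the second copy, and so held chr22_KI270733v1_random:167066-167724, called in 11 libraries with a mean percentile of 83.7.

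**Figure D4:**
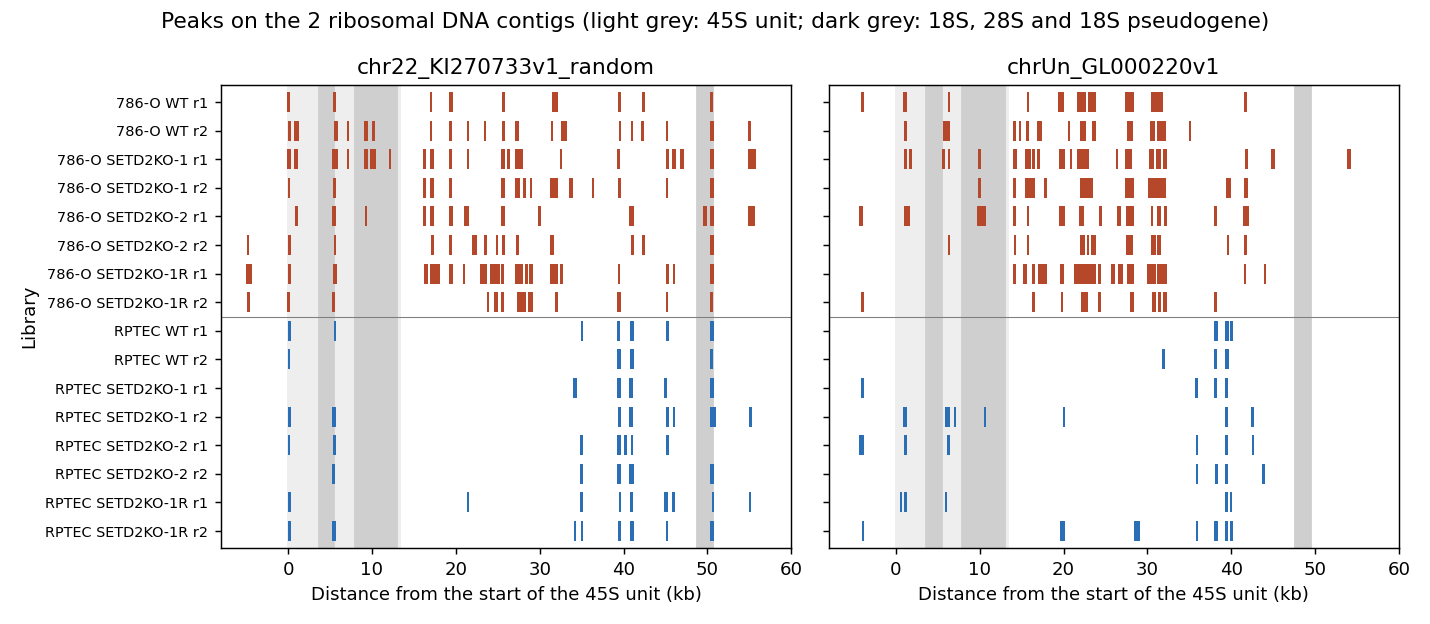
Peaks on the 2 rDNA contigs, 1 row per library (r1 and r2, replicates 1 and 2), as distance in kb from the start of the 45S unit, from -8 to 60 kb. Bars are called peaks, red in 786-O and blue in RPTEC, light grey is the 45S unit and dark grey the 18S and 28S genes and the 18S pseudogene. Between the end of the 45S unit and 20 kb past it, the 786-O rows hold 132 peaks and the RPTEC rows 5.

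Within the 45S unit of chr22_KI270733v1_random, recurrent calls lay at its start and at the end of the 18S gene. On chr22_KI270733v1_random the region 122174-122583 covered the first base of the unit, was called in 7 libraries of 786-O and 6 of RPTEC and had a mean percentile of 93.1. The region 127461-128247 on the same contig began 338 bp before the 3′ end of 18S and ran 448 bp past it, with calls in all 8 libraries of 786-O and 5 of RPTEC and a mean percentile of 58.1. A matching region at the 18S pseudogene of the partial copy, 172522-173326, was called in 8 and 7 libraries. On chrUn_GL000220v1 no recurrent region covered the start of the unit, and the region 106319-107311, beginning 895 bp into it, was called in 7 libraries with a mean percentile of 32.5. No peak of this contig had its midpoint in 18S, and a region starting 21 bp past the 18S end was called in 4 libraries of 786-O and 3 of RPTEC. Since rDNA copies are known to be alike, reads of one may have been placed on another, and peaks on one contig alone cannot be read as a difference between copies. The 3 further 45S copies placed on chromosome 21 carried 1 to 21 peaks per 786-O library and 0 to 10 per RPTEC library.

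The mitochondrial genome carried 38 peaks, 1 to 8 per library. Its first region, 256-712, was called in all 16 libraries with a mean percentile of 89.2. This region covers part of the noncoding control region, the tRNA gene TRNF and the start of RNR1, which encodes the 12S rRNA, and its summits lay between positions 488 and 537, before TRNF. The percentile was 88.6 or higher in 14 libraries, and lower in 786-O WT replicate 2 (47.6) and RPTEC SETD2KO-1R replicate 1 (65.8). Every other mitochondrial peak ranked at 66.8 or lower. The region 7583-9616, over COX2, ATP8, ATP6 and COX3, was called in 8 libraries with a mean percentile of 11.1. The region 10398-10857 was called in 4 with 18.7, and covers the last bases of ND3, the tRNA gene TRNR, ND4L and the start of ND4. The highest counts were in 786-O SETD2KO-1 replicate 1 (8 peaks) and SETD2KO-2 replicate 2 (7 peaks), while the other replicates of these clones had 1 and 2, so the difference lay within clones.

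Only 1 other contig region was called in all 16 libraries, chrUn_GL000219v1:56444-58164, with a mean percentile of 35.1. Over the genome 4222 regions (4.24%) were called in all 16, against 2 of 256 contig regions (0.781%). The highest ranked contig region among those called in at least 8 libraries was chr1_KI270711v1_random:7034-7378. It had a mean percentile of 97.9 over its 8 libraries, 6 of them 786-O. Of contig regions 34.8% were called in 1 library, against 37.2% of chromosome regions. Calls in 8 or more libraries were made for 17.6% of contig regions and 20.9% of chromosome regions. Regions called in 786-O alone made up 49.6% of contig regions and 33.7% of chromosome regions, and those called in RPTEC alone 13.3% and 21.7%.

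With all peaks, contig peaks did not differ past the threshold in width or score from chromosome peaks of the same library. The median width of contig peaks was 332 to 438 bp by library, against 363 to 433 bp on chromosomes. The log2 ratio of the 2 medians averaged -0.03 over the 8 lines (p = 0.391, two-sided exact sign-flip permutation test on line means). Contig peaks were narrower past the threshold with the upper 50% of peaks by score (log2 ratio -0.142, p = 0.00781, exact sign-flip permutation test), an equal number of peaks (-0.102, p = 0.0156) or a minimum peak length (-0.0649, p = 0.0234). The 2 lowest ratios were those of 786-O WT, with medians of 342 and 336 bp for contig peaks against 400 and 371 bp on chromosomes. Individual contig peaks ran from 233 to 2591 bp. The median score percentile of contig peaks was 34.4 to 62.4 by library, and differed from that of chromosome peaks by -0.0993 percentile points on average (p = 0.961, exact sign-flip permutation test). The interquartile range over all contig peaks was 25.1 to 76.3. A peak of the other library of the same line met 61.9% ± 7.33 of contig peaks (SD, n = 16 libraries) and 57.0% ± 7.49 of chromosome peaks, a difference of 4.91 percentage points by line that did not pass (p = 0.0547, exact sign-flip permutation test). It passed without 786-O SETD2KO-1 replicate 1 or 2, at 6.26 percentage points in both cases (p = 0.0156, exact sign-flip permutation test).

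**Figure D5:**
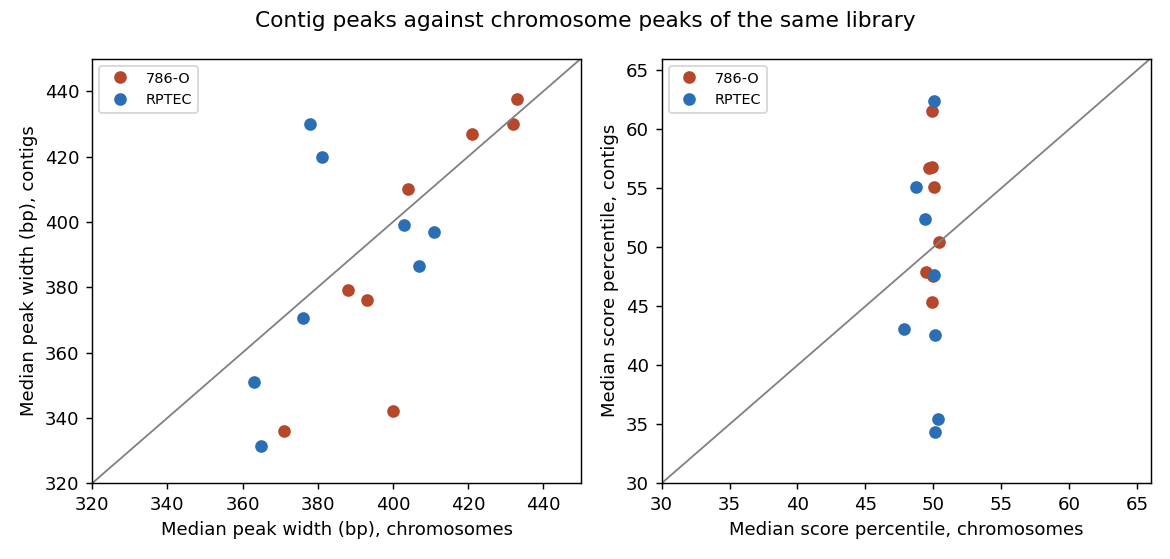
Median width in bp (left) and median score percentile (right) of contig peaks against those of chromosome peaks in the same library, 16 libraries, red 786-O and blue RPTEC. The grey line marks equality. Widths lie on both sides of the line, and contig percentiles spread from 34.4 to 62.4 around chromosome values near 50.

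With all peaks, neither cell line nor SETD2 status changed width or score of contig peaks past the threshold. The log2 width ratio was 0.05 lower in 786-O than in RPTEC (difference -0.05, p = 0.344, exact permutation test). Between SETD2KO and SETD2-expressing libraries it differed by 0.06 in 786-O (p = 0.400, exact permutation test) and -0.01 in RPTEC (p = 0.886). The percentile difference to chromosome peaks was 5.73 points higher in 786-O than in RPTEC (p = 0.178, exact permutation test). This score difference passed with an equal number of peaks taken from each library (11.5 points, p = 0.00186, exact permutation test) and without chr22_KI270733v1_random (8.72 points, p = 0.0317). By SETD2 status it differed by 0.544 points in 786-O (p = 0.914, exact permutation test) and by -5.06 points in RPTEC (p = 0.486). With 4 libraries on a side the smallest p these tests allow is 0.0286, and a p that misses the threshold does not show that widths or scores were alike.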

How the data were processed

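m6A was measured by MeRIP-seq in 16 IP libraries, with 16 Input samples not analysed here. Per the methods and the labels, the authors used STAR for alignment to hg38, HTSeq for counts and E. coli RNA for spike-in scaling, then MACS2 to call IP over Input peaks. The deposited values are 1 score per peak, a whole number of unstated scale, called per library. Lists without counts leave the depth behind each peak unknown, and 3 further columns were 0 throughout and were not used. Replicates are not stated to be separate cultures, so p-values measure the spread between libraries, which may be technical.

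Contig peaks were selected by sequence name. Peaks of the 16 lists were merged into regions where they overlapped, and calls were compared by Fisher's exact test with Benjamini-Hochberg adjustment over all regions. Shares, widths and score percentiles were compared by exact permutation tests over libraries, although SETD2 status is set per line. The threshold was 0.05. The sequences, comparisons and rules were chosen with earlier results of these data known. The contigs named are the 12 with the most peaks and those that differed between cell lines. The regions named were called in all 16 libraries, passed between cell lines, followed SETD2 status, or were among the 3 highest ranked or 3 widest of those called in at least 8 libraries. Rules that set WT apart, and other named contigs and regions, were chosen after their values were seen. Genes were taken from RefSeq (GRCh38.p14), which gives rDNA symbols and positions without the scaffold, so the 2 rDNA contigs were assigned from general knowledge of the assembly. NDUFA4L2, a further marker, was not analysed here. Steps were tested on simulated data with planted differences. Software was SciPy 1.17.1, pandas 2.3.3, NumPy 2.4.6 and Matplotlib 3.10.9 under Python 3.11.15.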

Additional observations from a re-analysis of the deposited data

Results flagged for a closer look

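Among the RPTEC SETD2KO libraries, SETD2KO-2 replicate 2 stood far above the other 3 in the log2 ratio of contig to chromosome peak width, at 0.14. Its median contig peak was 420 bp wide, against 381 bp on chromosomes. In 24 groups examined for such values this was the only one. With chance giving about 1 in 20 groups, 1 such value among 24 is no more than chance would give. Outside this group, RPTEC SETD2KO-1R replicate 2 had a higher ratio, 0.186. The effect of SETD2 status did not differ between the cell lines past the threshold in share, width or score (exact permutation tests, p = 0.966, 0.483 and 0.502).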

How the results depend on the processing

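The count of 8 contigs that differ between the cell lines stayed at 8 to 10 when libraries were left out in turn, and within 1.5 times under every other setting tried. The settings were the 50% of peaks with the highest scores, an equal number of peaks per library (19249), a minimum peak length of 288 bp, peaks within 100 bp merged, regions covered by at least 50%, contigs left out, other summaries of share, width or score, and a replicate block. Replicate numbers did not pair libraries, since their deviations correlated by -0.111 to 0.123 between lines. With the replicate number as a block, the RPTEC contrast of share by SETD2 status kept its 0.109 percentage points with p = 0.0556 (exact permutation test over 36 arrangements, the smallest they allow, so the block could not pass), and the count of contig regions that differ between the cell lines, 3, fell to 0. The smallest p under the block is also larger for these regions than without it, so neither change speaks of stability. No other call tested with the block changed, and the tests of 4 lines were not run with it.

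With the upper 50% by score, the cell line difference in share was 0.115 percentage points (p = 0.0306, exact permutation test), the RPTEC status contrast 0.0809 (p = 0.143) and the F of the RPTEC lines 2.51 (p = 0.181). The width ratio to chromosomes was then -0.142 (p = 0.00781, exact sign-flip permutation test) and the score difference 1.35 points. By status, the width ratio differed by -0.00859 in 786-O and 0.119 in RPTEC, and the score by -1.10 and 6.81 points. With an equal number of peaks the RPTEC contrast was 0.103 (p = 0.0571, exact permutation test), F was 3.81 (p = 0.114), the width ratio to chromosomes -0.102 (p = 0.0156) and the score difference 1.81 points. The width ratio by status was then -0.0523 in 786-O and 0.0440 in RPTEC, and the score difference between the cell lines 11.5 points (p = 0.00186, exact permutation test). With the minimum length the width ratio to chromosomes was -0.0649 (p = 0.0234, exact sign-flip permutation test), the width difference between cell lines 0.0083, that by status in RPTEC 0.0475, and the score difference by status in 786-O -2.35 points. Using means in place of medians gave 0.0675 for width by status in RPTEC and -1.20 points for score by status in 786-O. Without chr22_KI270733v1_random, the score difference was 8.72 points between cell lines (p = 0.0317, exact permutation test) and 1.64 points by status in RPTEC. Without the mitochondrial genome, the difference in peaks met in the other library was 5.16 percentage points (p = 0.0391, exact sign-flip permutation test). With contigs left out, a choice made after seeing the data, the cell line difference in share was 0.0893 without the mirrored pair (p = 0.00886, exact permutation test) and 0.0417 without the rDNA contigs (p = 0.270).

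Contig regions that differ between the cell lines numbered 0 with the upper 50%, an equal number of peaks or 50% cover. Those by SETD2 status in 786-O numbered 0 under the same 3 settings and 24 with 1 library allowed to deviate on each side. In RPTEC they numbered 1 with the upper 50% or 50% cover, and 11 with 1 allowed. Counts by SETD2 status over all regions were not made under these settings. The 9 regions absent from WT became 1 with the upper 50% or an equal number of peaks (of 4 over the genome in either case), 8 with the minimum length and 0 with 50% cover. Gained contig regions in 786-O fell from 24 to 12 with the upper 50% and 11 with equal numbers, and in RPTEC from 13 to 7 with the upper 50% or 50% cover. The cause of these shifts was not tested.

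Leaving out 1 library in turn gave differences in share of 0.0642 to 0.100 between cell lines, 0.0752 to 0.133 by status in 786-O and 0.0901 to 0.129 in RPTEC. F ran from 2.25 to 18.5 in 786-O, passing when SETD2KO-2 replicate 2 was left out (p = 0.0381, exact permutation test), and from 6.20 to 22.7 in RPTEC. The width ratio ran from -0.0689 to -0.0225 between cell lines, 0.0146 to 0.0970 by status in 786-O, -0.0605 to 0.0501 in RPTEC and -0.0477 to -0.00706 to chromosomes. Score differences ran from 3.91 to 7.92 points between cell lines, -2.31 to 3.06 by status in 786-O, -10.2 to -0.796 in RPTEC and -1.49 to 1.29 to chromosomes. The difference in peaks met ran from 3.97 to 6.26 points. Contig regions numbered 2 to 5 between cell lines (5 without 786-O SETD2KO-1R replicate 2), 1 to 6 by status in 786-O (6 when SETD2KO-2 replicate 2 was left out, 4 for its replicate 1 or either SETD2KO-1R library, 2 for SETD2KO-1 replicate 1) and 2 to 4 in RPTEC (4 when SETD2KO-2 replicate 2 was left out). Regions absent from WT numbered 9 to 10, and gained regions 24 to 32 in 786-O and 13 to 17 in RPTEC.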
